A study of Mus musculus with 3 samples.

Results

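The 7 genes described here, Pi16, Dpp4, Sema3c, Cd34, Thy1, Scara5 and Dact2, were taken by name as a set of markers used for Pi16- and Dpp4-positive universal fibroblasts, and all 7 were found among the 32288 features counted. They were followed in cells of the patellar tendon of wild-type (WT) mice in 2 libraries of animals 20 weeks old, called 20-week replicate 1 and 20-week replicate 2, and in 1 library of animals 2 weeks old. Tendons were cut out between kneecap and shin bone and digested with type I collagenase, and flow sorting left out blood-lineage and endothelial cells. The RNA of single cells was then counted with the 10x Chromium 3' v3.1 chemistry, which tags each captured molecule with a unique molecular identifier (UMI). All groups shared the WT genotype, the tissue and the sort. The number of animals behind each library is not stated, so the spread between these libraries may be technical. The p-values rest on that spread and on its trend over genes, in some fits on the trend alone. They do not measure a known spread between animals.

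Fibroblasts of many mouse organs include a population around vessels and in connective-tissue sheaths that carries Pi16 and Dpp4 and is regarded as a reservoir from which more specialised fibroblasts can form. In tendon, cells of this kind are usually placed in the sheath and the tissue between fascicles, apart from the tenocytes that lay down the aligned collagen of the tendon core. The markers have different roles. Pi16 is a CAP-superfamily protein, Sema3c is a secreted guidance factor that acts through neuropilin and plexin receptors, and Dpp4 is a surface peptidase that trims chemokines. Cd34 is a surface sialomucin also known from blood progenitors and endothelium, Thy1 is a GPI-anchored surface glycoprotein that binds integrins, Scara5 is a scavenger receptor that takes up ferritin, and Dact2 is an intracellular protein that binds Dishevelled and dampens Wnt and TGF-beta family signalling.

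The libraries differed in size. There were 606 cells in 20-week replicate 1, 1007 in 20-week replicate 2 and 4767 in the 2-week library after filtering, with 1783623, 5529140 and 32633409 UMIs and medians of 2822, 5116 and 6479 UMIs per cell. The 2-week library shared 2 and 3 barcodes with the 20-week libraries, and the 20-week libraries shared 0. Clustering without the 7 genes gave 21 clusters, of which those with at least 2 leading markers of a cell type were named from other genes. Progenitor fibroblast-like cells (Cd55, Clec3b, Ly6a, Mfap5, Pcsk6) made up 22.4% and 49.6% of cells in 20-week replicates 1 and 2 and 14.03% in the 2-week library. They came from different clusters at the 2 ages: cluster 2 held 131 of 136 and 492 of 499 of these cells in the 20-week replicates, and cluster 1 held 658 of 669 in the 2-week library. Every level given for this class therefore compares different clusters as well as ages. The other classes used here are tenocyte-like (Tnmd, Scx, Comp, Kera), stromal fibroblast-like (Cxcl14, Lpl, Steap4) and mural-like (Rgs5, Acta2, Myh11) cells. Unnamed cluster 12, led by Akr1c18, Smpd3, Wnt2 and Aldh1a3, had all 10 progenitor fibroblast markers detected but only 1 among its leading genes.

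The genes lie on 6 chromosomes in the GENCODE annotation of GRCm38. Pi16 is at chr17:29317680-29330593 on the plus strand, Dact2 at chr17:14195052-14204304 on the minus strand, Dpp4 at chr2:62330073-62412231 on the minus strand and Sema3c at chr5:17574281-17730268 on the plus strand. Cd34 is at chr1:194938819-194961279, Thy1 at chr9:44043384-44048579 and Scara5 at chr14:65666403-65764826, all on the plus strand. All 7 are protein-coding. Annotated antisense RNAs overlap Pi16, Dpp4, Cd34 and Dact2, and the strand setting of the authors' counting is not given in the sources used here, so reads of these pairs cannot be told apart.

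RefSeq promoters (GRCm38.p6, 250 bases before to 50 after the start) were matched for 5 members: Pi16, Dpp4, Sema3c, Cd34 and Dact2. Of these, 3 are printed. Dact2 was the member whose pattern over clusters was closest to that of Pi16, and Sema3c was the member called between the ages. Each runs 5' to 3' on the gene's own strand. Capitals mark matches, on either strand, to the TATA box (TATAAA), the CCAAT box (CCAAT), the GC box (GGGCGG), the AP-1 site (TGANTCA) or the E-box (CACGTG). The starts are those of RefSeq, which differ from the ends of the GENCODE genes given above. The windows are chr17:29318632-29318931 for Pi16, chr17:14203782-14204081 for Dact2 and chr5:17574566-17574865 for Sema3c.
Pi16: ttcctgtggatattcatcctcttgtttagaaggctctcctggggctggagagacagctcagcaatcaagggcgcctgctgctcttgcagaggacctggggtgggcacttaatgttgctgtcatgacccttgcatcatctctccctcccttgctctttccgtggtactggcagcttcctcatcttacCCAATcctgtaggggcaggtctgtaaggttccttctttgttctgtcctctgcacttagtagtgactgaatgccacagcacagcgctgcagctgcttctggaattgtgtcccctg
Dact2: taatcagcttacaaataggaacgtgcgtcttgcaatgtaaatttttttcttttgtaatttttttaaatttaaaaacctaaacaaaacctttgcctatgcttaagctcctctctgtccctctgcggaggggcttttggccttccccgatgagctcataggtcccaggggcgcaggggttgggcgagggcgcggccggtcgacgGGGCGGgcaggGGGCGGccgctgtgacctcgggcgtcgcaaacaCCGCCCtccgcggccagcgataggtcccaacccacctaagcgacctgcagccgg
Sema3c: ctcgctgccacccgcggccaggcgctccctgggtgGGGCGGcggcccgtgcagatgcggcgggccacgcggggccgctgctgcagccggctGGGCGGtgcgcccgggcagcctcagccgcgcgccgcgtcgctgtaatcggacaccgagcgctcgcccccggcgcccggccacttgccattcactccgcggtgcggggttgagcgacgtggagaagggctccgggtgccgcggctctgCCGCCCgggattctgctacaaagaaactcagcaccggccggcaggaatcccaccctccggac

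The Sema3c window was 75.7% GC with 42 CpG sites and 3 GC boxes (GGGCGG). The Dact2 window was 56.7% GC with 23 CpG sites and also had 3 GC boxes, all within 48 bases before the start. The Pi16 window was 53.3% GC with 3 CpG sites and a single CCAAT match 64 bases before the start. Over 32851 promoters of the same length, the medians were 52.7% GC and 7 CpG sites, and 35.7% held a GC box, 37.4% CCAAT, 13.6% TATAAA, 7.81% TGANTCA and 7.15% CACGTG. These matches describe letters and not binding.

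Pi16 was a progenitor fibroblast gene in all 3 libraries. Its level in progenitor fibroblast-like cells was 2553 CPM (UMIs of the gene per 1000000 UMIs of the cells summed) in 20-week replicate 1, 1097 CPM in 20-week replicate 2 and 1579 CPM in the 2-week library, so the 2-week value lay between the 20-week values. Tenocyte-like cells held 17.5 and 177 CPM in the 20-week replicates and 4.15 CPM in the 2-week library. Cells were thinned to 1000 UMIs each to compare shares at equal depth. A Pi16 UMI was then present in 61.03% and 38.5% of progenitor fibroblast-like cells of the 20-week replicates and in 61.3% at 2 weeks, against 73.5%, 66.3% and 83.4% before thinning. Mural-like cells, which should lack the gene, gave 4.65%, 0% and 0% after thinning, at median depths of 1993, 2018 and 7020 UMIs per cell. The highest level of all was in cluster 12, at 7011 CPM in the 21 cells of 20-week replicate 1 and 3171 CPM in the 190 cells at 2 weeks.

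Dpp4 was likewise highest in cluster 12 and next in progenitor fibroblast-like cells, with fewer UMIs and with more of them outside the class. Progenitor fibroblast-like cells held 125 and 101 CPM in the 20-week replicates and 199 CPM at 2 weeks, from 53, 321 and 935 UMIs. Cluster 12 stood at 430 CPM in 20-week replicate 1 and 538 CPM in the 2-week library. The share of progenitor fibroblast-like cells with a Dpp4 UMI after thinning was 10.3% and 8.62% at 20 weeks and 17.3% at 2 weeks, against 27.9%, 31.7% and 58.3% unthinned. In mural-like cells the thinned share was 2.33%, 0% and 0%.

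A second place of Dpp4 was among tenocytes. The 2-week tenocyte-like cluster led by Angptl7 and Kera had 57.6 CPM from 261 UMIs in 120 of its 445 cells, while Pi16 there had 9 UMIs. Sema3c and Thy1 had more UMIs there than Dpp4, at 914 and 600. The 20-week replicates had 6 and 2 cells in that cluster, too few to give a level. Dpp4 was also found in 20-week replicate 2 in cluster 17, led by histone and proliferation genes, which had 79.8 CPM from 40 UMIs. Those 68 cells had all 6 B-lineage markers detected, with a summed level of 5635 CPM, and held 10.6% of the library's Dpp4. Pi16, Sema3c, Thy1, Scara5 and Dact2 were at 0 UMIs in them. The same cluster at 2 weeks held 25 cells with 6 Dpp4 UMIs.

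Sema3c was high in progenitor fibroblast-like cells and was the member with the clearest gap between the ages there. It stood at 345 CPM in 20-week replicate 1 and 336 CPM in 20-week replicate 2, against 1392 CPM in the 2-week library. In this class the 20-week libraries lay close together and well below the 2-week library. After thinning, 22.8% and 22.6% of these cells had a Sema3c UMI at 20 weeks and 64.3% at 2 weeks, against 54.4%, 54.1% and 94.5% unthinned. In mural-like cells the thinned shares were 4.65% and 0% at 20 weeks and 0.45% at 2 weeks. Tenocyte-like cells held 72.9 and 101 CPM at 20 weeks and 181 CPM at 2 weeks, with the 2-week library again highest. In cluster 12 a Sema3c UMI was present, unthinned, in 19 of 21 cells of 20-week replicate 1 and in 188 of 190 cells at 2 weeks. These cells held 51 and 2346 UMIs of it. In 20-week replicate 2, unnamed cluster 19, led by Cytl1, Clu and Ibsp, had 151 CPM of Sema3c while Pi16, Dpp4, Scara5 and Dact2 were at 0 UMIs in its 44 cells.

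**Figure D1:**
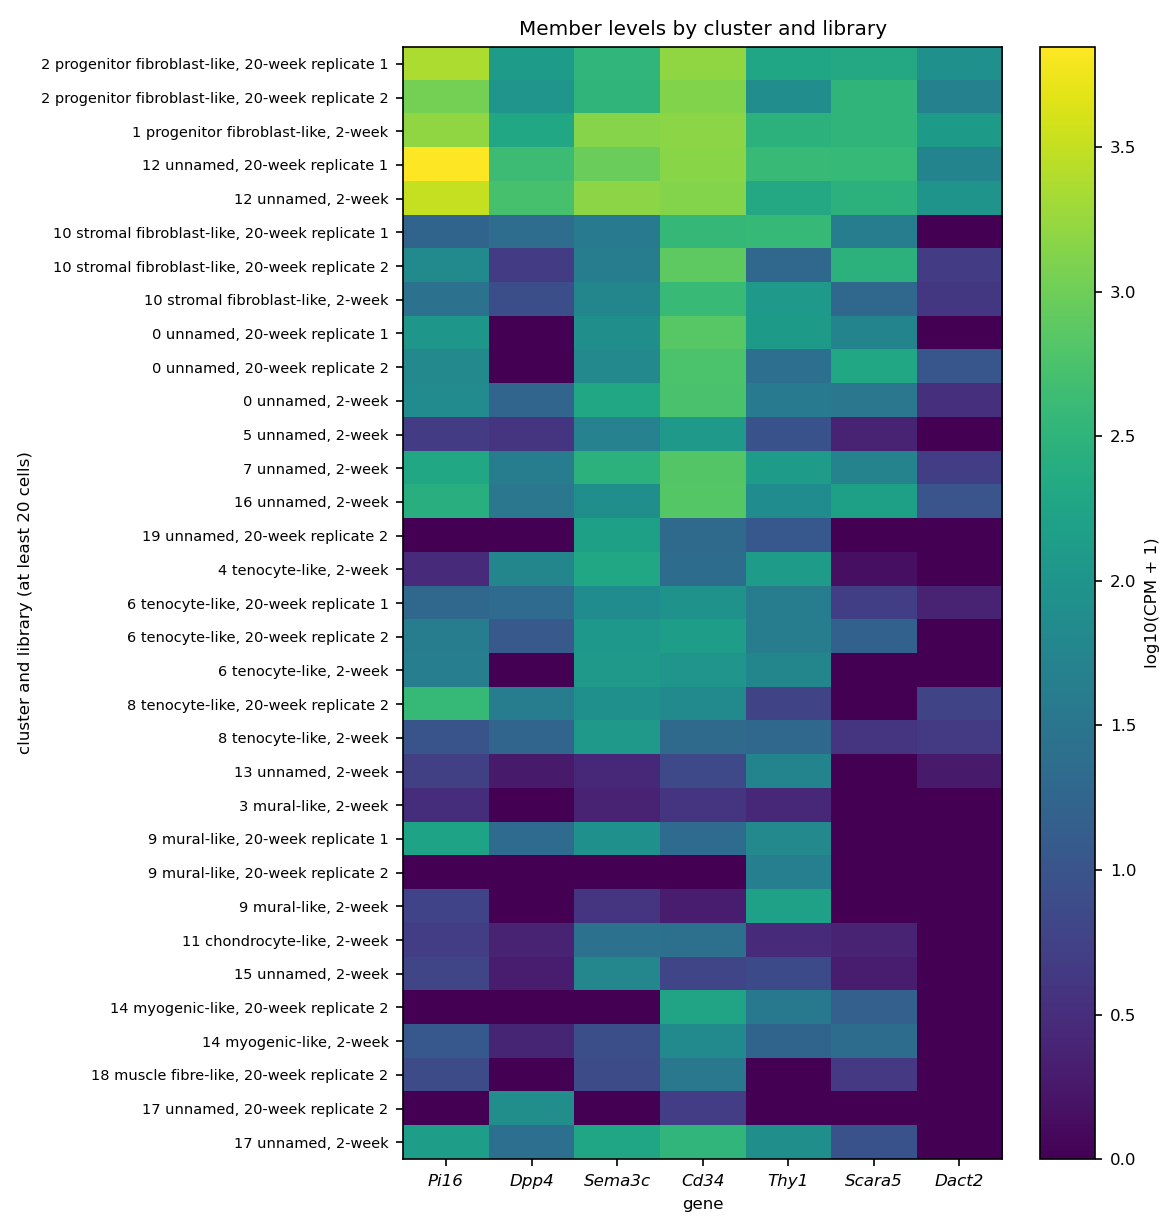
Level of the 7 genes in each cluster and library with at least 20 cells, as log10(CPM + 1) in colour, with the 20-week libraries above the 2-week library within a cluster and cluster 2 above cluster 1. The brightest entry of each gene is in a progenitor fibroblast-like row or in cluster 12, Cd34 stays bright across fibroblast clusters, and Dact2 is dark nearly everywhere else.

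Over all cells, Cd34 was the member found in the largest share of cells in each library. Unthinned, this was 46.5% and 62.3% at 20 weeks and 47.4% at 2 weeks, where Sema3c was close at 44.5%. In 2-week tenocyte-like cells the unthinned share was 9.06% for Cd34, below Sema3c (60.5%) and Thy1 (40.2%). Progenitor fibroblast-like cells held 1588 and 1304 CPM in the 20-week replicates and 1498 CPM at 2 weeks. Stromal fibroblast-like cells held 362 and 766 CPM at 20 weeks and 391 CPM at 2 weeks, and unnamed cluster 0, led by Igfbp3 and Sfrp2, held 691 and 572 CPM at 20 weeks and 559 CPM at 2 weeks. Mural-like cells had 1 and 0 UMIs of Cd34 in the 20-week replicates and 11 UMIs, or 2.35 CPM, in 667 cells at 2 weeks. Tenocyte-like cells lay in between, at 91.8 and 108 CPM at 20 weeks and 22.6 CPM at 2 weeks. After thinning, 80.1% and 65.3% of progenitor fibroblast-like cells at 20 weeks and 73.8% at 2 weeks had a Cd34 UMI, against 93.4%, 95.4% and 98.2% unthinned.

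Thy1 was found well outside progenitor fibroblasts, and the 20-week libraries disagreed on it. Progenitor fibroblast-like cells held 189 CPM in 20-week replicate 1, 77.2 CPM in 20-week replicate 2 and 290 CPM at 2 weeks. In stromal fibroblast-like cells the values were 379 CPM from 115 UMIs in 20-week replicate 1 and 18.5 CPM from 5 UMIs in 20-week replicate 2, against 120 CPM from 112 UMIs at 2 weeks. The 20-week libraries thus lay on either side of the 2-week library in that class. Tenocyte-like cells held 43.2 and 27.5 CPM at 20 weeks and 104 CPM from 630 UMIs at 2 weeks. Of these 2-week UMIs, 600 lay in 253 of the 445 cells of the cluster led by Angptl7 and Kera. Thy1 was also present in the pericyte-type mural cluster led by Rgs5 and Kcnj8, at 62.5 and 45.2 CPM at 20 weeks, from 3 UMIs each, and at 158 CPM from 160 UMIs at 2 weeks. The other mural-like cluster, led by Actg2, had 6 UMIs in 455 cells at 2 weeks. After thinning, 18.4% and 7.21% of progenitor fibroblast-like cells at 20 weeks and 24.1% at 2 weeks had a Thy1 UMI, against 38.2%, 24.4% and 71.4% unthinned.

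Scara5 was shared by progenitor and some stromal fibroblasts and was near 0 in tenocyte- and mural-like cells. Its level in progenitor fibroblast-like cells was 206 and 330 CPM at 20 weeks and 320 CPM at 2 weeks. Stromal fibroblast-like cells again split the 20-week libraries, at 39.5 CPM in replicate 1 and 296 CPM in replicate 2, against 18.2 CPM at 2 weeks. Unnamed cluster 0 held 53.8 and 200.3 CPM at 20 weeks, the first from 6 UMIs, and 32.9 CPM at 2 weeks. Mural-like cells had 0 UMIs in all 3 libraries, and tenocyte-like cells had 3 and 4 UMIs at 20 weeks and 6 at 2 weeks. After thinning, 14.7% and 28.9% of progenitor fibroblast-like cells at 20 weeks and 25.6% at 2 weeks had a Scara5 UMI, against 39.7%, 70.7% and 71.9% unthinned.

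Dact2 was nearly restricted to progenitor fibroblast-like cells and cluster 12, which together held 97.6% of its UMIs in 20-week replicate 1, 97.3% in 20-week replicate 2 and 95.4% at 2 weeks. Its level in the class was 87.5 and 53.4 CPM at 20 weeks, from 37 and 170 UMIs, and 123 CPM at 2 weeks, from 577 UMIs. Tenocyte-like cells had 1 UMI in each 20-week library and 5 at 2 weeks, and mural-like cells had 0 in each library. The thinned shares in progenitor fibroblast-like cells were 7.35% and 5.41% at 20 weeks and 9.42% at 2 weeks, against 18.4%, 13.8% and 41.4% unthinned.

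**Figure D2:**
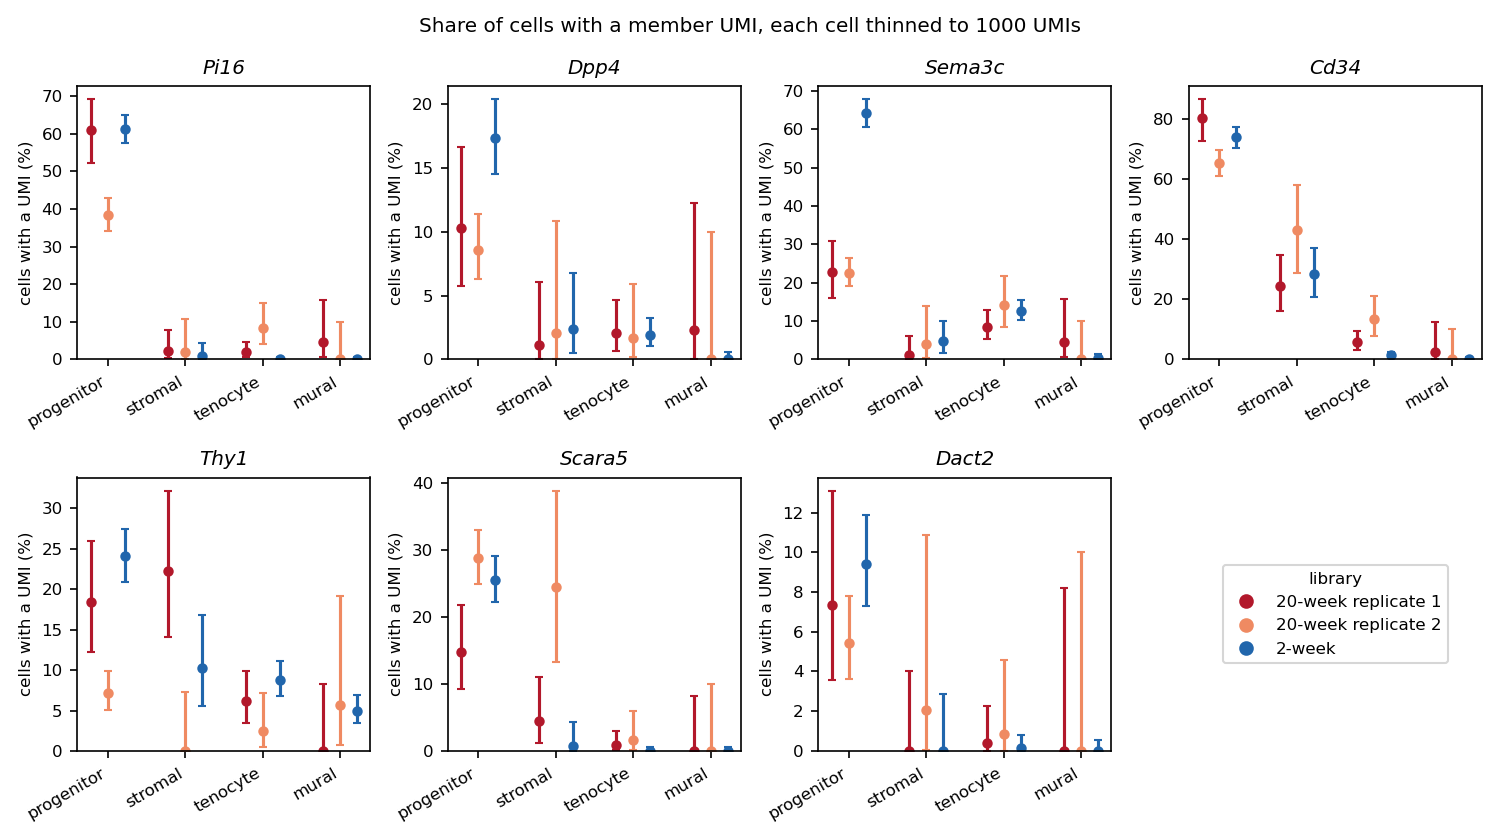
Share of cells with at least 1 UMI of each gene in 4 classes, with every cell thinned to 1000 UMIs. Points are single libraries, 20-week replicates left of the 2-week library, and bars are exact 95% binomial intervals that cover counting error only. All 7 genes were highest in progenitor fibroblast-like cells at 2 weeks and in 20-week replicate 2, and 6 were in 20-week replicate 1, where Thy1 was highest in stromal fibroblast-like cells. The Scara5 intervals of progenitor and stromal fibroblast-like cells overlap in 20-week replicate 2, and at 2000 UMIs per cell their order was the other way.

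Set by share of cells among the named classes, progenitor fibroblast-like cells were the highest class for 6 of the 7 members in 20-week replicate 1 and for all 7 in 20-week replicate 2 and the 2-week library. The exception was Thy1, at 22.2% of stromal fibroblast-like cells in 20-week replicate 1. For Scara5 in 20-week replicate 2 the order rested on the depth: at 1000 UMIs per cell the intervals of progenitor and stromal fibroblast-like cells overlapped (24.9% to 33.1% and 13.3% to 38.9%), and at 2000 UMIs per cell stromal fibroblast-like cells were higher, at 45.2% against 39.6%, which left 6 of 7 there. The share of all genes that were highest in this class was not computed. Genes differ between clusters by construction, also where they were left out of the clustering, so these counts are a description. How much of a member's RNA lay in the class differed between members. Progenitor fibroblast-like cells held 71.3% and 95.6% of Pi16 UMIs at 20 weeks and 55.0% at 2 weeks, while for Thy1 the figures were 29.9% and 84.5% at 20 weeks and 42.1% at 2 weeks. Cluster 12 was 3.47% of cells in 20-week replicate 1 and 3.99% at 2 weeks, yet held 25.8% and 37.3% of their Pi16 UMIs and 23.1% and 37.3% of their Dpp4 UMIs. It was a single cell in 20-week replicate 2, or 0.0993% of that library.

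**Figure D3:**
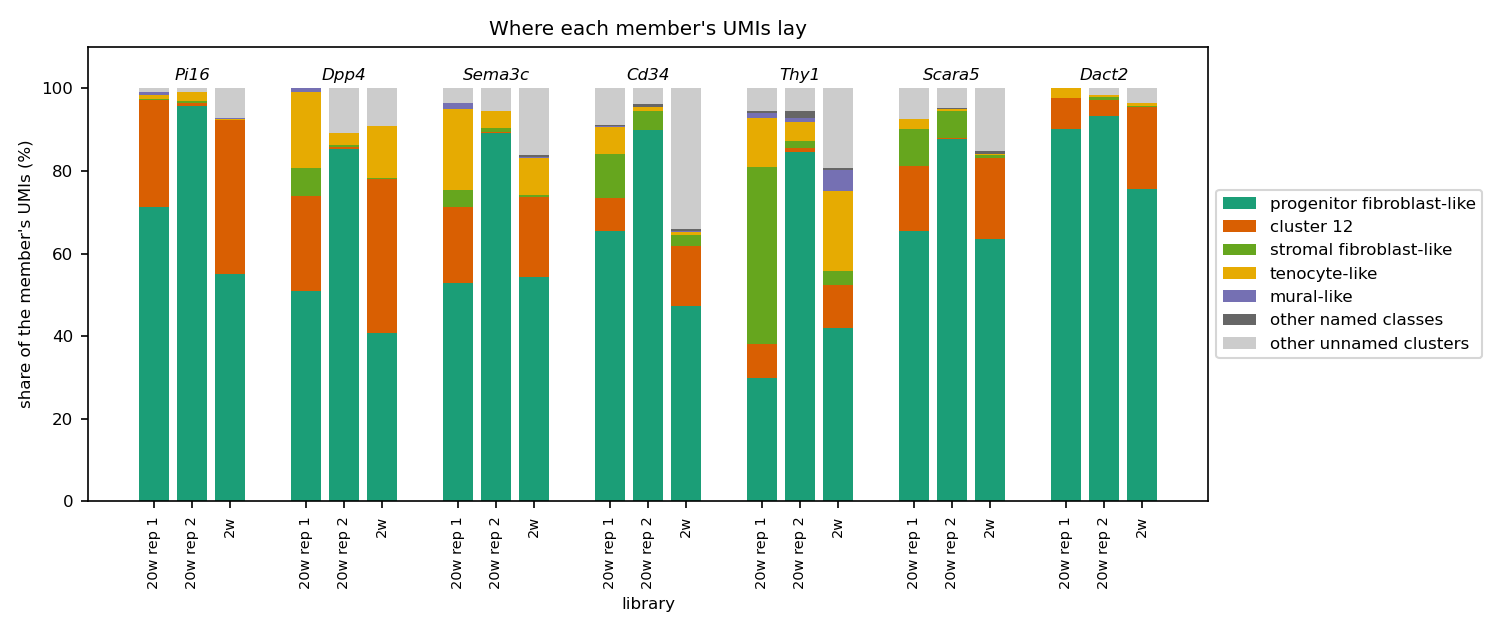
Share of each gene's UMIs, in percent, that lay in each class, in one bar per library with the 20-week replicates left of the 2-week library. Dact2 lay almost wholly in progenitor fibroblast-like cells and cluster 12, and Thy1 in 20-week replicate 1 had its largest share in stromal fibroblast-like cells, at 42.9%.

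Several members were often detected in the same progenitor fibroblast-like cells. Shares of cells with several members also rise with the share of each member alone, and no expected share was computed for them. After thinning, at least 3 of the 7 were detected in 39.7% and 25.1% of progenitor fibroblast-like cells of the 20-week replicates and in 57.4% at 2 weeks. In cluster 12 the share was 81.0% in 20-week replicate 1 and 72.1% at 2 weeks. Tenocyte-like cells gave 0.408% and 1.68% at 20 weeks and 0% at 2 weeks, and mural-like cells gave 2.33% and 0% at 20 weeks and 0% at 2 weeks. Across the pool of fibroblast-lineage clusters, Pi16 and Dpp4 were found together in 19 cells of 20-week replicate 1, 25 of 20-week replicate 2 and 137 at 2 weeks, which is 3.24, 2.07 and 3.42 times the product of their shares. That pool holds unnamed clusters that scored highest for chondrocyte, mural, osteogenic or B-lineage markers, cluster 17 among them, and cells without either gene raise the ratio. Without these clusters, a setting chosen after seeing the data, it was 3.20, 2.07 and 2.75. Within progenitor fibroblast-like cells the same pair was found in 11, 25 and 75 cells, or 1.29, 1.51 and 1.05 times the product. The ratio was thus lower within the class than over the pool in each library, and closest to 1 in the 2-week class. It cannot exceed 1 over the larger of the shares multiplied. After thinning, Pi16 was found in most class cells of 20-week replicate 1 and the 2-week library. The class could therefore not reach the pool ratio in those libraries, and no conclusion is drawn from the lower value there. In 20-week replicate 2 the Pi16 share left room for the pool ratio of 2.07, and the class stood at 1.51.

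A finer clustering into 27 clusters divided most of the 20-week progenitor fibroblast-like cells between a pair of clusters, in which the members had different levels. Finer cluster 6, named progenitor fibroblast-like and led by Smpd3, Stmn4 and Efemp1, held 124 cells of 20-week replicate 1, among them the 21 of cluster 12, and 222 of replicate 2. Finer cluster 7, unnamed and led by Hmcn2, Fmo2 and Meox1, held 34 and 306, the second with 32 cells of cluster 0. Pi16 was 3382 and 1612 CPM in finer cluster 6, against 351 and 643 CPM in finer cluster 7. Dact2 was 93.6 and 111 CPM against 0 and 2.12 CPM, and Sema3c was 455 and 601 CPM against 117 and 101 CPM. Dpp4 was 187 and 165 CPM against 23.4 and 45.5 CPM, with 2 UMIs behind the value of replicate 1 in finer cluster 7. Cd34 was 1677 and 1545 CPM against 1040 and 1064 CPM, and Thy1 was 218 and 116 CPM against 164 and 44.5 CPM. Scara5 was 240.3 and 453 CPM against 140.2 and 223 CPM. By ratio, Thy1 differed least in replicate 1, Cd34 differed least in replicate 2, and Dact2 differed most in both. At 2 weeks, finer cluster 1 held 488 of the 658 cells of cluster 1, while 165 lay in finer cluster 5. Cluster 12 was mostly in finer cluster 14, so finer cluster 1 matches finer cluster 6 only in part. Finer cluster 1 held 1534 CPM of Sema3c, 217 CPM of Dpp4 and 147 CPM of Dact2. Genes of cells that were clustered differ between clusters by construction, also where the 7 were left out of the clustering, so these values are a description.

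**Figure D4:**
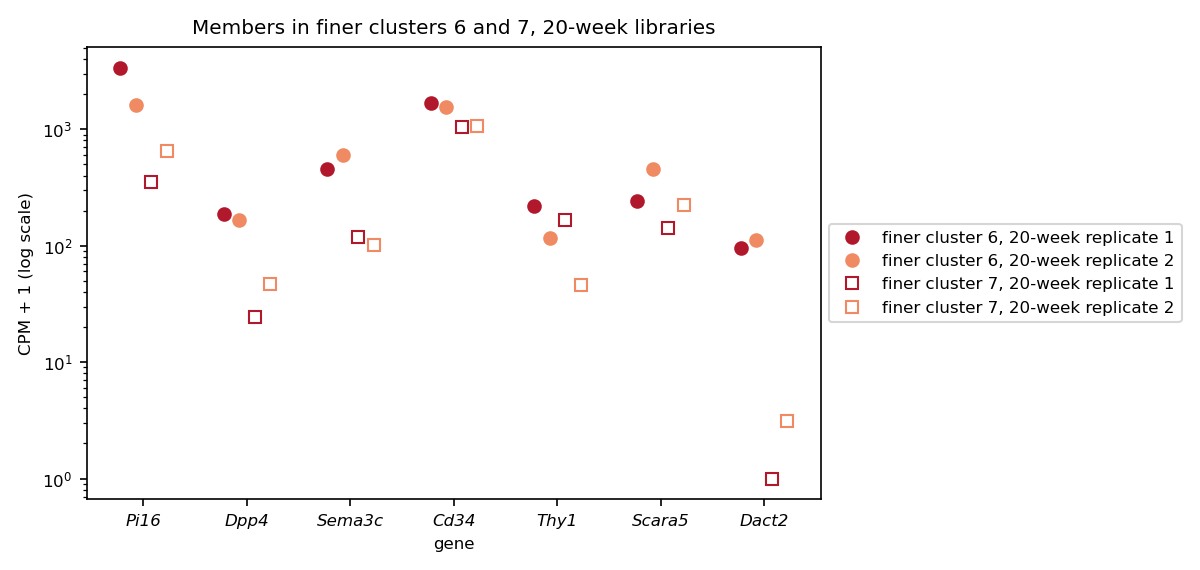
Level of each gene, as CPM + 1 on a log axis, in the 20-week libraries for finer cluster 6 (filled circles) and finer cluster 7 (open squares). Every gene was higher in finer cluster 6 within each library, by least for Thy1 in replicate 1 and for Cd34 in replicate 2, and by most for Dact2.

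Over 33 sums of 1 cluster in 1 library with at least 20 cells, the patterns of log2(CPM + 10) were compared among 11948 genes. These sums share libraries and, within a library, depth, so the correlations are descriptive. Dact2 was closest to Wnt10b (Pearson r = 0.95), a secreted Wnt ligand, Stmn4 (0.95), a stathmin, and Gpr1 (0.92), a chemerin receptor. Pi16 was closest to Adgrd1 (0.87), an adhesion G protein-coupled receptor, Megf9 (0.87) and the TGF-beta receptor Tgfbr2 (0.86). Dpp4 was closest to Car8 (0.86), a carbonic anhydrase relative, Wnt10b (0.85) and Cmah (0.84), which modifies sialic acid. Cd34 and Scara5 were near neighbours of each other (0.88), beside Ramp2 (0.89) and Ace (0.88) for Cd34 and Ace (0.88) and the angiopoietin receptor Tek (0.87) for Scara5. Sema3c was close to Fndc1 (0.84) and to Igfbp6 (0.84), which binds insulin-like growth factors. Thy1 had the weakest neighbours, the fibrillin Fbn1 (0.79), the surface protein Cd248 (0.76) and Heg1 (0.75). Among the members, Pi16 was closest to Dact2 (0.86), and Thy1 stayed at 0.59 or below with each of the other 6.

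The comparison of 20-week with 2-week tendon asked how the members change between the ages. It was made on UMI sums per library with edgeR's quasi-likelihood test, adjusted by Benjamini-Hochberg over all genes tested. With 1 library at 2 weeks, the spread is known only from the 20-week pair, and the 2-week library is assumed to vary alike. In bulk sums over all cells, fewer cells of a type and less RNA per cell cannot be told apart.

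In progenitor fibroblast-like cells, 4.34% of 11354 genes were called (2.67% in the higher and 1.67% in the lower direction). Sema3c was lower at 20 weeks in the sum over this class and was the single member of 7 called. Its fitted log2 fold change, 20-week over 2-week, was -1.98 (SE 0.58, adjusted p = 0.0185), and it was -1.91 for 20-week replicate 1 alone and -2.12 for replicate 2 alone. DESeq2, which called 1.37% of 9589 genes there, gave -1.99 (adjusted p = 0.0143). The call was lost with stricter cell filters (-1.84, adjusted p = 0.0627 by edgeR), with thinned sums (-1.87, adjusted p = 0.0757), with doublets kept (-1.96, adjusted p = 0.183) and with the finer clustering (-1.46, adjusted p = 0.224). In each edgeR fit that called Sema3c here, the estimated prior degrees of freedom were infinite, so that each gene's spread was taken wholly from the trend over genes. Among the fits that did not call it, the estimate was finite with stricter filters and with doublets kept. It was infinite with thinned sums and with the finer clustering. The progenitor fibroblast marker list, which holds none of the 7, also stood lower at 20 weeks in the class, at 11963 and 8442 CPM summed over 10 genes against 15102 CPM at 2 weeks, and the part of this in the Sema3c difference was not tested. The class also held different mixtures of cells at the 2 ages. Of its cluster 2 cells, 31 of 131 and 274 of 492 in the 20-week replicates lay in finer cluster 7. Sema3c was lower there than in finer cluster 6, and the part of this mixture in the difference was not tested.

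The other 6 members did not pass in progenitor fibroblast-like cells. Thy1 had a log2 change of -1.08 (SE 0.53, adjusted p = 0.385 by edgeR), Dact2 -0.79 (SE 0.49, adjusted p = 0.626 by edgeR) and Dpp4 -0.77 (SE 0.51, adjusted p = 0.682 by edgeR), with both 20-week libraries below the 2-week library for each. Scara5 stood at -0.21, Cd34 at 0.01 and Pi16 at 0.30. For Pi16 the 20-week libraries pointed opposite ways, at 0.79 for replicate 1 and -0.59 for replicate 2.

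**Figure D5:**
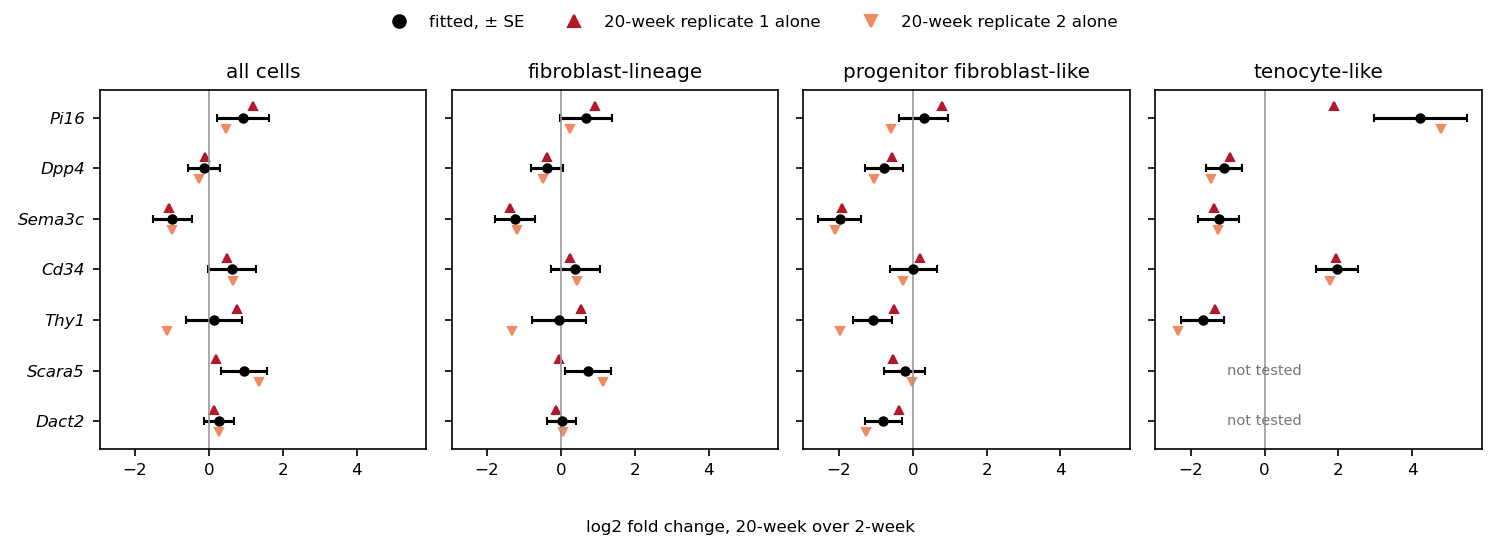
Log2 fold change, 20-week over 2-week, of each gene in 4 populations. Black points are the edgeR fit with its SE, and triangles are each 20-week library alone over the 2-week library. Sema3c lies left of 0 in every panel. The Thy1 triangles lie on both sides of 0 in all cells and in fibroblast-lineage cells. So do those of Scara5 and Dact2 in fibroblast-lineage cells, and of Pi16 and Cd34 in progenitor fibroblast-like cells.

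Over all cells, 0 of 7 members were called, beside 0.265% of 13215 genes (edgeR, 1174 genes at an unadjusted p under 0.05). DESeq2 also called 0 of 7, beside 1.61% of 12778 genes. Sema3c stood at -0.99 (SE 0.54), with 155 and 217 CPM at 20 weeks and 369 CPM at 2 weeks. Pi16 stood at 0.93 (SE 0.70), with 849 and 661 CPM at 20 weeks and 414 CPM at 2 weeks, beside the larger share of progenitor fibroblast-like cells in the 20-week libraries, whose part in the value was not tested. Scara5 split the 20-week libraries, at 74.6 and 217 CPM against 72.7 CPM at 2 weeks. Thy1 did too, at 150 and 52.6 CPM against 99.3 CPM at 2 weeks. In the fibroblast-lineage pool, 0 of 7 were called as well, beside 0.279% of 12914 genes (edgeR, 1161 genes at an unadjusted p under 0.05). DESeq2 called 0 of 7, beside 1.61% of 12423 genes. Sema3c had the change farthest from 0, at -1.23 (SE 0.54). The pool held 554 and 854 cells at 20 weeks and 3721 at 2 weeks. Without its unnamed clusters that scored highest for another cell type it held 543, 783 and 2952. Changes in the pool therefore also compare different mixtures of clusters.

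In tenocyte-like cells 5 members passed the filter on low counts and 0 were called, beside 0% of 7973 genes (edgeR, 776 genes at an unadjusted p under 0.05). DESeq2 called 1.68% of 8941 genes and 1 member, Pi16 (log2 change 4.21, adjusted p = 0.0168), for which edgeR gave 4.22 (SE 1.27, adjusted p = 0.318). Both 20-week libraries stood above the 2-week library, replicate 1 from 13 UMIs in 12 of 245 cells, and replicate 2 by more. In 20-week replicate 2 the 84 Pi16 UMIs lay in 15 of 119 cells, with 55 of them in 3 cells and 73 of them in cluster 8, and the change was 4.78 for replicate 2 alone and 1.87 for replicate 1 alone. Cd34 was higher in both 20-week libraries than at 2 weeks, with a log2 change of 1.96 (SE 0.57) that did not pass (adjusted p = 0.303 by edgeR). Thy1 stood at -1.68 (SE 0.58), Sema3c at -1.24 (SE 0.55) and Dpp4 at -1.10 (SE 0.50), with both 20-week libraries below the 2-week library for each. The 10 progenitor fibroblast markers summed to 2134 and 1742 CPM in 20-week tenocyte-like cells and to 428 CPM at 2 weeks, and their part in the Pi16 and Cd34 values was not tested. The clusters behind this class also differed: cluster 6 gave 233 of 245 and 68 of 119 cells at 20 weeks, and cluster 4 gave 445 of 684 at 2 weeks.

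Whether the age change differed between progenitor fibroblast-like and tenocyte-like cells was tested by a class-by-age term with the library as block. By edgeR 0 of 7 members passed, beside 1.24% of 11418 genes, and by DESeq2 0 of 7, beside 0.94% of 4466 genes. Scara5 and Dact2, left out of the tenocyte-like test for low counts, entered only through the progenitor class, and no difference is read from their few tenocyte-like UMIs. Among the other 5 members, the differences farthest from 0, progenitor minus tenocyte, were -3.69 for Pi16 (SE 1.06, unadjusted p = 0.00201, adjusted p = 0.108 by edgeR) and -1.95 for Cd34 (SE 0.57, unadjusted p = 0.00249, adjusted p = 0.123 by edgeR). Sema3c differed by -0.71 (SE 0.54), so its lower level at 20 weeks in progenitor fibroblast-like cells was not shown to be particular to them.

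Genes around the members were read from 8 lists, with calls in progenitor fibroblast-like cells only. The estimated prior degrees of freedom were infinite in that main fit. They were finite in the main fits of all cells (6.50), the fibroblast-lineage pool (6.66) and tenocyte-like cells (5.97). The edgeR calls of list genes thus took each gene's spread wholly from the trend over genes, as for Sema3c. Of 17 companion genes of this fibroblast type, 17 were tested, 0 rose and 3 fell, in a class where 2.67% of all genes tested rose and 1.67% fell. The median log2 change of the list was -0.50 beside 0.01 over all genes tested. The 3 were Wnt2, a secreted Wnt ligand (-2.08, SE 0.51, adjusted p = 0.00185 by edgeR), Aldh1a3 (-1.90, SE 0.49, adjusted p = 0.00373 by edgeR), a retinoic acid-forming enzyme, and Bmp7 (-3.42, SE 0.83, adjusted p = 0.00188 by edgeR), a bone morphogenetic protein. Bmp7 rested on 0 and 6 UMIs at 20 weeks and 81 at 2 weeks, and DESeq2 did not call any of the 3.

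Among 4 tested CAP-superfamily relatives of Pi16, 1 rose and 1 fell, beside the same 2.67% and 1.67% of all genes. Crispld2 was at 40.2 and 269 CPM at 20 weeks, from 17 and 856 UMIs, and 1.70 CPM at 2 weeks, from 8 UMIs. Its log2 change was 6.53 (SE 0.76, adjusted p = 1.1e-14 by edgeR and 0.0293 by DESeq2). The 20-week values differed widely, and the edgeR p-value does not measure that spread. Pi15 was at 80.4 and 49.9 CPM at 20 weeks and 397 CPM at 2 weeks (-2.59, SE 0.53, adjusted p = 7.3e-05 by edgeR and 0.00463 by DESeq2). Of 11 tested class 3 semaphorins and receptors of Sema3c, 0 rose and 2 fell, again beside 2.67% and 1.67% of all genes, and both were semaphorins like Sema3c itself. Sema3d was at 11.8 and 10.4 CPM at 20 weeks and 97.9 CPM at 2 weeks (-3.17, SE 0.53, adjusted p = 3.4e-07 by edgeR and 0.0173 by DESeq2). Sema3a, a repulsive guidance factor for axons, was at 4.73 and 2.51 CPM at 20 weeks and 23.0 CPM at 2 weeks, from 2, 8 and 108 UMIs (-2.97, SE 0.70, adjusted p = 0.00102 by edgeR, not called by DESeq2).

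The other 5 lists had 0 calls in this class. The Dpp4 substrate Cxcl12, a chemokine, stood at 182 and 269 CPM at 20 weeks and 170 CPM at 2 weeks, and the Dpp4 relative Fap at 68.5 and 87.6 CPM at 20 weeks and 125 CPM at 2 weeks. The ferritin chains Fth1 and Ftl1, which Scara5 can bind as ferritin, were higher in both 20-week libraries, at 8280 and 5528 CPM against 2756 CPM for Fth1 and at 3274 and 2647 CPM against 1588 CPM for Ftl1, without passing (adjusted p = 0.508 and 0.727 by edgeR). Of the Thy1 partners, Sdc4, a syndecan, stood at a log2 change of 0.46 and the integrin chain Itgb5 at 0.24. Ctnnb1, which encodes beta-catenin, stood at -0.30 and Dact1, a relative of Dact2, at 0.20. Of the Cd34 family, Podxl2 stood at -1.27 (SE 0.53) and Podxl had 0 UMIs in both 20-week libraries and 10 at 2 weeks, too few to test.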

How the data were processed

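UMI counts per gene and barcode were deposited by the authors as unnormalized matrices, 1 per library. Cell Ranger 6.1.2 and mm10 are named by the submitters' processing notes, and the gene annotation is not given in the sources used here. Barcodes with fewer than 500 genes or 1000 UMIs, or with over 10% mitochondrial UMIs, were left out. Doublets were removed as the highest neighbour scores against simulated pairs, up to a loading rate of 0.8% per 1000 barcodes (3 and 8 in the 20-week replicates, 197 at 2 weeks). Clustering (scanpy 1.11.5, python-igraph 0.11.9) used 2000 variable genes without the 7 members, 30 components, 15 neighbours and Leiden resolution 0.5. A cluster was named when at least 2 of its 10 leading genes were markers of 1 of 15 cell types and at least 3 markers were detected, that is, present in 10% of its cells. The fibroblast-lineage pool holds all clusters not named for another cell type, unnamed ones included.

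CPM are UMI sums over cells per 1000000 UMIs of the same sum, for sums of at least 20 cells. Age tests used edgeR 4.0.16 (R 4.3.3) with TMM and filterByExpr, 1 residual degree of freedom, two-sided, at an adjusted p of 0.05, and DESeq2 1.42.0 as the alternative. The edgeR age test was tried on simulated counts. Each gene's spread was set there to the trend over genes, so false calls for genes off the trend were not covered. In progenitor fibroblast-like cells (11354 genes) it recovered 37 of 100 genes changed by 2 on the log2 scale and 86 of 100 changed by 5, with 7 false calls. Of genes changed by 2, it recovered 16 of 100 in all cells, 1 of 100 in the fibroblast-lineage pool and 17 of 100 in tenocyte-like cells. The 0 members called in those populations therefore do not exclude changes of that size. Single-library log2 ratios carry a prior count of 2 and no test. Alternatives covered the low-count filter, thinned sums, each 20-week library left out, cell filters, doublets, resolution and the clustering genes. Binomial intervals are exact at 95% and cover counting error only. Named genes were the 7 members, the 3 genes most like each over cluster sums (1 is not reported here), and from each list the called genes or, with none called, its 2 of highest mean CPM. The members and lists were chosen with earlier results of these data known.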

Additional observations from a re-analysis of the deposited data

How the results depend on the processing

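For Scara5 the highest class in 20-week replicate 2 changed at 2000 UMIs per cell (6 of 7 members highest in progenitor fibroblast-like cells, against 7). Of 203 member values under another setting, 184 kept their direction and side of the threshold. In progenitor fibroblast-like cells the 1 member called, Sema3c, became 0 with thinned sums, stricter cell filters, doublets kept and resolution 1.0, and stayed 1 with cluster 12 added, a setting chosen after seeing the data. In tenocyte-like cells the 0 members called became 1, Pi16, with DESeq2, with no filter (adjusted p = 1.0e-05), with stricter cell filters (6.5e-04) and with members among the clustering genes (0.0112), all by edgeR but the first. The class-by-age count of 0 became 1 with no filter, again Pi16 (-3.67, adjusted p = 7.9e-05 by edgeR). The cause was not tested. Directions turned for values near 0. Dact2 was -0.12 in all cells with thinned sums, and in the fibroblast-lineage pool -0.026 with no filter, -0.0108 with stricter filters, -0.0549 with members among the clustering genes and -0.15 without unnamed clusters that scored highest for another type, a setting also chosen after seeing the data. Cd34 in progenitor fibroblast-like cells was -0.0038 with DESeq2, -0.0252 with no filter, -0.0052 with thinned sums and -0.0212 with members among the clustering genes, and Scara5 was 0.0422 at resolution 1.0.

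Counts of all genes called moved more. In all cells, 35 became 206 with DESeq2, 698 with no filter, 18 with thinned sums, 0 with stricter filters and 20 with doublets kept. In the fibroblast-lineage pool, 36 became 200, 609, 20 and 76 under the first 4 of these, 23 with members among the clustering genes and 339 without the unnamed clusters of other types. In progenitor fibroblast-like cells, 493 became 131 with DESeq2, 188 with thinned sums and 98 with doublets kept. In tenocyte-like cells, 0 became 150 with DESeq2, 430 with no filter, 48 with thinned sums, 314 with stricter filters, 194 with doublets kept and 256 with members among the clustering genes. Leaving out a 20-week library leaves no residual degrees of freedom, so it gives values with no test, of which 36 of 52 stayed within 1 SD. No paired analysis was possible because the 2-week group has 1 library, so the groups share fewer than 2 replicate numbers. Depth limits the 20-week values: Dpp4 and Dact2 in progenitor fibroblast-like cells of 20-week replicate 1 rest on 53 and 37 UMIs.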
